A study of Rattus norvegicus with 12 samples.

Results

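The genes described here build the DNA replication machinery, together with the enzymes that supply its nucleotides, the chromatin assembly factor that works behind the fork and a pair of transcription factors that drive such genes. They were taken by symbol from a list of 43 genes chosen for what they are known to do. The expression table held 42 of them among its 17450 genes, and Mcm4 is not analysed here. Of these, 41 were abundant enough to be tested, among 13761 genes tested in all. The exception was Lig1, which was assigned 0, 4 and 0 counts in BE and 0, 0 and 3 counts in NC.

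RNA was measured in esophageal tissue of Rattus norvegicus in 2 states. The BE rats were operated on by esophagoduodenostomy, which connects esophagus and duodenum so that refluxed duodenal contents bathe the squamous lining, a way to model Barrett's esophagus in rats. The NC rats were untreated. Strain, age, sex and the time since surgery are not given in the labels. Each state had 3 input RNA-seq libraries, read as counts per gene, and 3 libraries of RNA pulled down by an antibody to m6A (N6-methyladenosine, a base modification of RNA), read as lists of peaks. A peak is a stretch of transcript enriched in the pull-down.

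Before a cell enters S phase, the origin recognition complex, Cdc6 and Cdt1 load the ring-shaped Mcm helicase onto DNA. Mcm10, Cdc45 and the GINS complex then turn the ring into a moving helicase. Primase and DNA polymerase alpha lay down primers, replication factor C opens the sliding clamp Pcna, and polymerases delta and epsilon copy the strands. Most of these genes are transcribed in late G1 and S phase under E2F control. In the esophageal lining, dividing cells sit in and next to the basal layer, and the outer layers differentiate without dividing.

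Gene counts per input library were 17471748, 15543460 and 16270167 in BE and 11213531, 16863737 and 14686281 in NC. The labels do not state that each library of a group is from its own animal, so p-values speak only of the spread among these libraries, which may be technical. Levels are given as CPM, a gene's count in parts per 1000000 of the library total, scaled by edgeR's TMM method for differences in RNA composition. Squamous basal markers summed to between 8374.3 and 10550.1 CPM in BE against 5042.9 to 5358.1 CPM in NC, and 8 of 10 were called higher and 1, Dst, lower. Striated muscle markers summed to between 3487.9 and 4680.8 CPM in BE against 71295.2 to 81091.9 CPM in NC, and 11 of 12 were called lower. Smooth muscle markers were called lower in 7 of 7 cases, nerve and glial markers in 3 of 5 and fibroblast markers in 3 of 6, while among 6 endothelial markers 1 was called higher and among 6 leukocyte markers 1 was called lower. None of the 6 columnar epithelial markers in the table, Krt8, Krt18, Krt20, Vil1, Muc2 and Lgals4, was abundant enough to be tested. Krt18 had 635, 0 and 1 counts in BE against 3, 3 and 0 in NC, and Krt8 had 177, 11 and 10 in BE against 5, 5 and 7 in NC. Krt20 had 0, 38 and 0 counts in BE and none in NC, Lgals4 had 0, 10 and 12 in BE against 0, 1 and 0 in NC, and Vil1 and Muc2 had 0 in all 3 BE libraries. Hepatocyte markers summed to 9158.5 CPM in BE replicate 1 and to 62.1 and 78.0 CPM in the other BE libraries, against 109.7 to 154.1 CPM in NC. BE replicate 1 was also the library with most of the Krt8 and Krt18 counts, and the source of those counts was not tested. The part of these differences in tissue makeup in the results below was not tested, and in whole tissue more cells of a type and more RNA per cell cannot be told apart.

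Promoter sequences show a feature that the choice of genes did not use directly. The RefSeq promoter table for the GRCr8 assembly, with 250 bases before and 50 after each gene's start, matched 36 of the 43 genes, and had no entry for Mcm4, Cdc6, Gins4, Orc1, Rrm2, Rpa3 and E2f1. An E2F-type motif, searched on both strands as the words TTTGGCGC, TTTCGCGC, TTTCCCGC and TTTGCCGC, was present in 15 of the 36 promoters (41.7%) and in 618 of 27457 promoters (2.25%). The 15 were those of Cdt1, Mcm2, Mcm3, Mcm5, Mcm6, Mcm7, Gins1, Gins3, Rfc3, Pola1, Pole, Pole2, Rpa2, Lig1 and Tyms. CCAAT, searched on both strands, was in 22 of 36 (61.1%, against 37.7% of all promoters) and the GC box word GGGCGG in 24 (66.7%, against 34.9%). The cell cycle homology word TTTGAA was in 3 (8.33%, against 18.1%). The promoters of 4 genes of the Mcm helicase are printed because the motif recurs across this family, and that of Rfc1 because Rfc1 held no match and was the member with the lowest fold change. Each is the 250 bases before the gene's start, 5′ to 3′ on the gene's strand, with E2F-type matches in capitals. Where a match on 1 strand overlapped a match on the other, the capitals span both, as in the palindromic stretch just before the Mcm2 start.
Mcm2: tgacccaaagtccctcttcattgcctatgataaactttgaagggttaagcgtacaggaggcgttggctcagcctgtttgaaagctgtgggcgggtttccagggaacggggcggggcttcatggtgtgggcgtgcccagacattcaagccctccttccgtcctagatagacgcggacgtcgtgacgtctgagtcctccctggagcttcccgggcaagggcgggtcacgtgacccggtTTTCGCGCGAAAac
Mcm5: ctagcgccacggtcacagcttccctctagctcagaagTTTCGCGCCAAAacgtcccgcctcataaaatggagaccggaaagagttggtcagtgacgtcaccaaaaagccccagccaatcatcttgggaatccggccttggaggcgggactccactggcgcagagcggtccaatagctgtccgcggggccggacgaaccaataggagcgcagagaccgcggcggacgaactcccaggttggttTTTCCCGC
Mcm6: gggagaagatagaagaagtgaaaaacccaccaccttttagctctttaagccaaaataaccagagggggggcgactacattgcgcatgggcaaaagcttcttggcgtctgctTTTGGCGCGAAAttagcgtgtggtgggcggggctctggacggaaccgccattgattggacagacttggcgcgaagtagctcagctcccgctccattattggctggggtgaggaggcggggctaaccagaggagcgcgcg
Mcm7: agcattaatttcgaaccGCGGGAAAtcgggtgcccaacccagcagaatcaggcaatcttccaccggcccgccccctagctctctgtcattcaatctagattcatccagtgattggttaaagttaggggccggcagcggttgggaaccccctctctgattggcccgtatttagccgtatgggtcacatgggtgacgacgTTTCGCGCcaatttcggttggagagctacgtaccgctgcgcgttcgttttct
Rfc1: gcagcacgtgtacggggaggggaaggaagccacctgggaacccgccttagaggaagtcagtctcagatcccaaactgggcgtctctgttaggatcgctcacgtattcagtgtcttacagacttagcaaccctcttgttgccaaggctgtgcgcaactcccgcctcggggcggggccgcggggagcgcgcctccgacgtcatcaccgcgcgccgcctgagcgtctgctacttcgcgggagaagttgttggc
On GRCr8 the Mcm2 stretch lies at chr4:122918095-122918344 on the minus strand, Mcm5 at chr19:13488563-13488812 on the plus strand, Mcm6 at chr13:42404353-42404602 on the minus strand, Mcm7 at chr12:22163179-22163428 on the minus strand and Rfc1 at chr14:43319748-43319997 on the plus strand. A match describes letters and not a bound site. The median log2 fold change was 1.85 over the 14 tested members with a match and 1.60 over the 21 without. Both sets were mixed, as genes named after their values were seen show. Without a match were also Mybl2, Mcm10, Tk1 and Pcna, with log2 fold changes of 3.54, 3.07, 2.49 and 1.98. With a match were also Pola1 at 0.88 and Rpa2 at 0.57, which was not called.

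Most of the listed replication genes were higher in BE. Of 41 members tested, 33 were called higher in BE at an adjusted p under 0.05 (80.5%), none was called lower, and 8 were not called. Over all genes tested, 2999 were called higher (21.8%) and 2996 lower (21.8%). At least 2-fold higher were 30 members, against 10.3% of all genes, and at least 4-fold higher were 14, against 3.79%. The median log2 fold change was 1.73 over the members and 0.03 over all genes, and 29 members lay above 1.28, the 90th percentile of all genes. In 35 members every BE library stood above every NC library, a pattern seen in 28.2% of all genes. Summed over the members, CPM were 1142.2, 1532.2 and 1337.2 in BE against 528.5, 429.3 and 478.4 in NC.

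**Figure D1:**
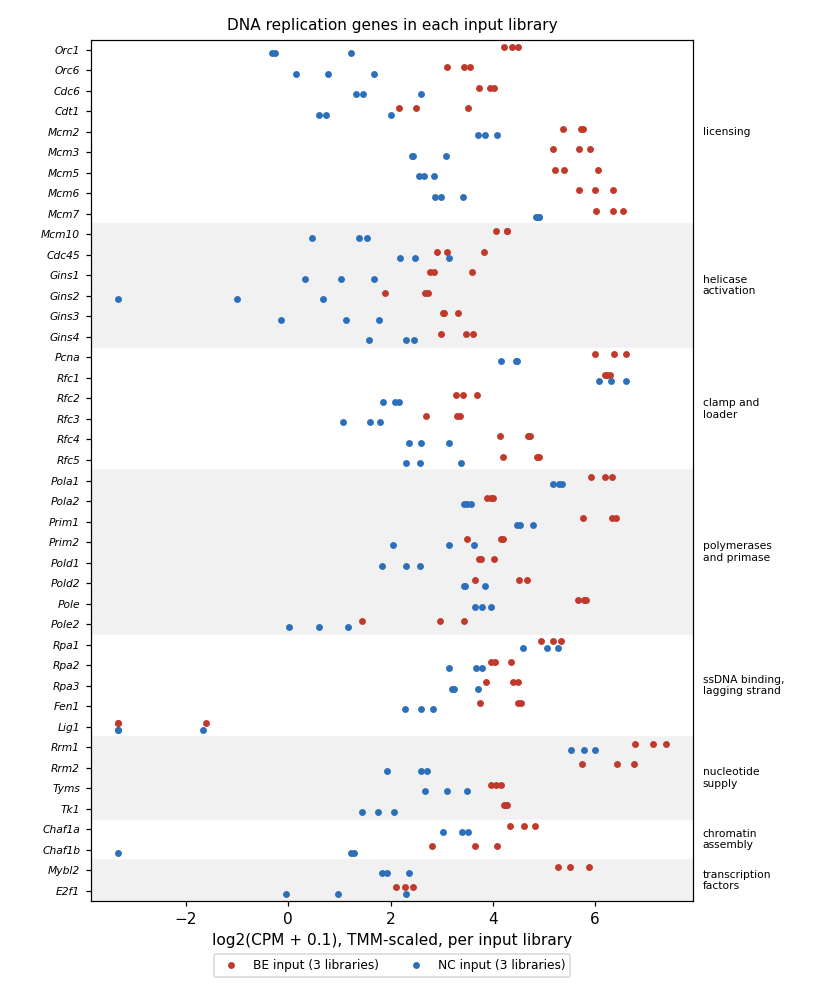
Level of the 42 replication genes in each input library, as log2 of TMM-scaled CPM plus 0.1 on the horizontal axis, with BE libraries in red and NC libraries in blue and genes grouped by role. In 35 of the 41 tested genes the red points all lie right of the blue points. In the other 6, Cdc45, Rfc1, Prim2, Pold2, Rpa1 and E2f1, the groups overlap.

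The size of these changes depended on the scaling. With library totals alone the median of all genes moved to 0.32, all genes split into 4536 higher and 2162 lower, and 37 members were called higher, with a median of 2.02 over all 41 tested. With libraries scaled to squamous epithelial genes the median of all genes moved to -0.51, and all genes split into 1089 higher and 5214 lower. This scaling used the summed counts of basal and suprabasal markers, of which the suprabasal Krt4 and Krt13 were the most abundant. In the main fit Krt4 and Krt13 rose by log2 0.41 and 0.42, against 1.62 for the basal Krt5 and 3.58 for Krt14. The scaling thus follows mainly Krt4 and Krt13 and not the basal markers. In that scaling 26 members were called higher and 1, Rfc1, lower, and the median over all members tested was 1.20. The 7 members that lost their call there were Cdt1, Gins4, Pola1, Rpa3, Tyms, Chaf1a and Chaf1b. BE replicate 1, the library with hepatocyte RNA, was the lowest of the BE libraries in 27 of 41 members. Without it 35 members were called higher, and the median over all members tested was 1.92.

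Origin licensing genes had the highest median fold change of the groups with more than 2 genes. All 9 tested were called higher, with a median log2 fold change of 2.44 and a range of 1.44 to 4.04. Orc1, the subunit of the origin recognition complex whose level follows the cell cycle in human cells, had 20.5, 22.5 and 18.6 CPM in BE, against 0.704, 0.739 and 2.23 CPM in NC. The groups were far apart, and the log2 fold change of 4.04 ± 0.44 (SE, adjusted p = 5.64e-05) was the largest among the members. Orc6, a loosely bound subunit, had 8.54, 10.7 and 11.6 CPM in BE, against 3.12, 1.61 and 1.01 CPM in NC (log2 2.44 ± 0.45, adjusted p = 0.00158). Orc2, Orc3, Orc4 and Orc5, the other core subunits, did not pass the test, with log2 fold changes of 0.49, -0.01, 0.19 and -0.28, named after their values were seen.

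The loaders of the helicase were also higher. Cdc6, the ATPase that joins the origin complex to load the helicase, had 15.2, 13.2 and 16.1 CPM in BE, against 2.41, 5.98 and 2.66 CPM in NC (log2 1.99 ± 0.38, adjusted p = 0.00182). Its partner Cdt1 had 4.37, 5.56 and 11.3 CPM in BE, against 3.92, 1.41 and 1.58 CPM in NC. The groups of Cdt1 came close, and its log2 fold change of 1.64 ± 0.55 had an adjusted p of 0.0358. That call did not survive leaving out BE replicate 2 (adjusted p = 0.051), BE replicate 3 (0.187), NC replicate 2 (0.124) or NC replicate 3 (0.11).

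All 5 subunits of the Mcm ring that were tested rose, 3 of them by log2 2.92 to 2.95 and the other two by less than log2 2. Mcm3 had 35.8, 59.6 and 51.3 CPM in BE, against 5.33, 5.24 and 8.33 CPM in NC (log2 2.95 ± 0.27, adjusted p = 1.73e-05). Mcm5 had 37.1, 65.9 and 41.9 CPM in BE, against 7.14, 6.18 and 5.82 CPM in NC (log2 2.92 ± 0.25, adjusted p = 1.26e-05). Mcm6 had 51.2, 81.5 and 63.5 CPM in BE, against 10.6, 7.79 and 7.18 CPM in NC (log2 2.95 ± 0.23, adjusted p = 6.37e-06). In these subunits the lowest BE library was several times above the highest NC library, and BE replicate 1 was the lowest in BE. Mcm2 had 41.4, 52.9 and 54.0 CPM in BE, against 16.8, 13.0 and 14.2 CPM in NC (log2 1.75 ± 0.18, adjusted p = 3.89e-05). Mcm7 had 64.6, 93.0 and 80.8 CPM in BE, against 28.6, 29.8 and 29.6 CPM in NC (log2 1.44 ± 0.15, adjusted p = 5.05e-05). The count ratio of Mcm3 to Mcm7 was 0.554, 0.641 and 0.635 in BE against 0.187, 0.176 and 0.282 in NC, with every BE library above every NC library.

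Helicase activation genes were called higher in 5 of 6 cases, with a median log2 fold change of 2.05. Mcm10, which is needed to start unwinding, had 19.2, 16.6 and 19.3 CPM in BE, against 2.82, 1.28 and 2.51 CPM in NC (log2 3.07 ± 0.34, adjusted p = 5.96e-05). The GINS complex bridges the helicase and polymerase epsilon. Gins1 had 7.06, 11.9 and 6.75 CPM in BE, against 3.12, 1.95 and 1.15 CPM in NC (log2 2.06 ± 0.47, adjusted p = 0.00524). Gins2 had 6.53, 3.61 and 6.30 CPM in BE, against 0, 0.403 and 1.51 CPM in NC (log2 3.04 ± 0.91, adjusted p = 0.0227). The 0 counts of Gins2 in NC replicate 1 allow up to 0.302 CPM, and the call was lost without BE replicate 3 (adjusted p = 0.0687) or NC replicate 2 (0.102). Gins3 had 9.85, 8.14 and 7.99 CPM in BE, against 0.805, 2.08 and 3.30 CPM in NC (log2 2.05 ± 0.49, adjusted p = 0.00681). Gins4 rose by log2 1.24 ± 0.35 (adjusted p = 0.0164), a call lost without BE replicate 3 (0.0681) or NC replicate 2 (0.0605). Cdc45, the remaining partner of the active helicase, had 7.43, 8.54 and 14 CPM in BE, against 8.75, 4.43 and 5.46 CPM in NC. Its groups overlapped, and its log2 fold change of 0.69 ± 0.37 did not pass (adjusted p = 0.162).

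**Figure D2:**
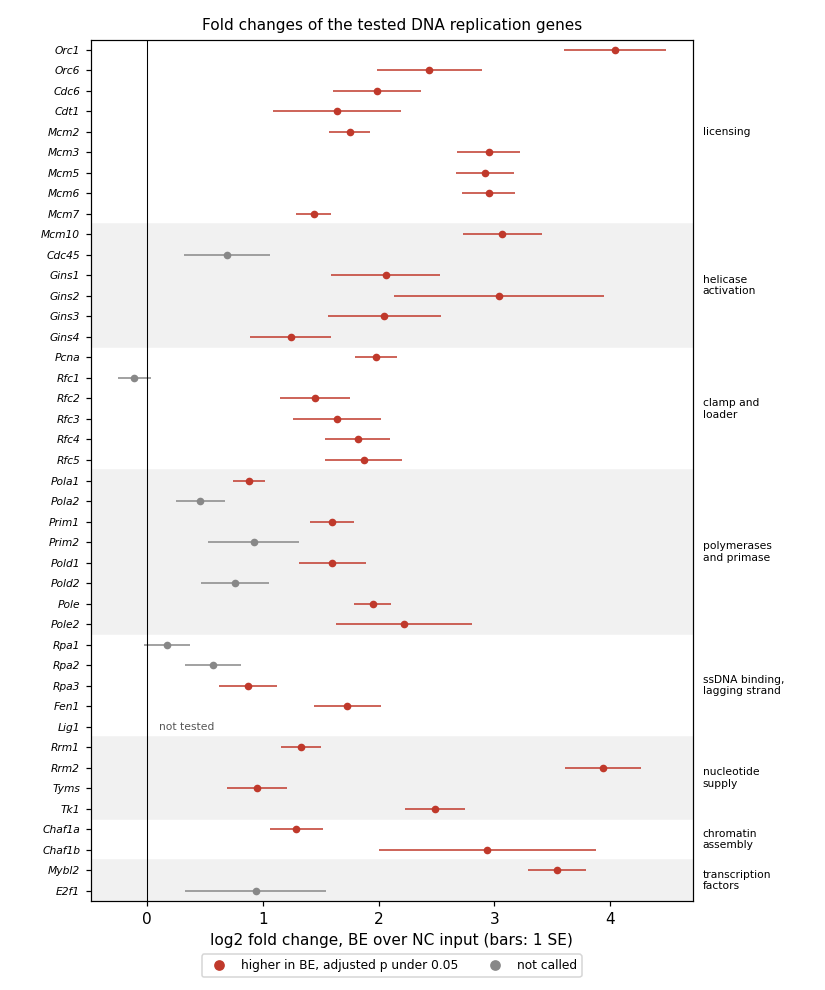
Log2 fold change of each tested replication gene, BE over NC input, with bars of 1 SE, in red where the adjusted p was under 0.05 and in grey where it was not. Orc1 and Rrm2 lie furthest right at 4.04 and 3.94, and Rfc1 is the one gene left of 0, at -0.11, a sign that turned with library totals alone (0.18) and without NC replicate 1 (0.035).

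The clamp and the 4 small subunits of its loader were higher, and the large subunit of the loader was not called. Pcna, the sliding clamp that tethers the polymerases, had 81.9, 96.7 and 63.5 CPM in BE, against 22.0, 17.7 and 21.8 CPM in NC (log2 1.98 ± 0.18, adjusted p = 1.89e-05). Rfc5 had 18.3, 29.1 and 29.6 CPM in BE, against 5.83, 4.84 and 10.3 CPM in NC (log2 1.87 ± 0.33, adjusted p = 0.00118). Rfc4 had 17.6, 26.3 and 25.8 CPM in BE, against 5.93, 5.04 and 8.76 CPM in NC (log2 1.82 ± 0.28, adjusted p = 0.000557). These loader subunits are shared by several clamp loaders, each with its own large subunit. Rfc2 had 9.59, 12.8 and 10.6 CPM in BE, against 3.52, 4.16 and 4.38 CPM in NC (log2 1.45 ± 0.30, adjusted p = 0.00297), and Rfc3 rose by log2 1.64 ± 0.38 (adjusted p = 0.00557). Rfc1, the large subunit of the replicative loader, had 75.0, 77.8 and 72.6 CPM in BE, against 96.9, 67.6 and 78.9 CPM in NC. The NC libraries of Rfc1 lay on either side of the BE libraries (log2 -0.11 ± 0.14, adjusted p = 0.571), although with squamous scaling Rfc1 was called lower (-0.67, adjusted p = 0.0188). Among the large subunits of the alternative loaders, Chtf18 and Atad5 rose by log2 2.13 ± 0.44 (adjusted p = 0.00298) and 1.76 ± 0.20 (adjusted p = 8.76e-05), named after their values were seen.

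Polymerase and primase genes were split, with 5 of 8 called higher and a median log2 fold change of 1.26. Pole, the catalytic subunit of the leading-strand polymerase epsilon, had 50.5, 54.8 and 56.2 CPM in BE, against 13.7, 12.5 and 15.5 CPM in NC (log2 1.95 ± 0.16, adjusted p = 8.57e-06). Its partner Pole2 had 2.63, 10.7 and 7.76 CPM in BE, against 0.905, 1.41 and 2.15 CPM in NC (log2 2.22 ± 0.59, adjusted p = 0.0124). BE replicate 1 was near the NC libraries in Pole2, and the call was lost without BE replicate 2 (adjusted p = 0.0686). Prim1, the catalytic subunit of primase, had 80.0, 84.9 and 54.3 CPM in BE, against 27.5, 23.0 and 22.1 CPM in NC (log2 1.60 ± 0.19, adjusted p = 9.59e-05). Pold1, the catalytic subunit of polymerase delta, rose by log2 1.60 ± 0.29 (adjusted p = 0.00143), and Pola1, that of polymerase alpha, by log2 0.88 ± 0.14 (adjusted p = 0.000737).

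The 3 members of this group that were not called are accessory subunits. Prim2, the regulatory subunit of primase, had 11.1, 17.8 and 18.2 CPM in BE, against 12.3, 4.03 and 8.69 CPM in NC, with overlap between BE replicate 1 and NC replicate 1 (log2 0.92 ± 0.39, adjusted p = 0.0849). Pold2, an accessory subunit of polymerase delta, had 12.4, 22.8 and 25.4 CPM in BE, against 14.3, 10.7 and 10.9 CPM in NC (log2 0.76 ± 0.29, adjusted p = 0.0571). Again BE replicate 1 lay among the NC libraries. Without BE replicate 1 both passed, Prim2 with an adjusted p of 0.0388 and Pold2 with one of 0.00347, and Prim2 also passed without NC replicate 1 (0.0366). Pola2, the accessory subunit of polymerase alpha, had 14.7, 15.6 and 15.9 CPM in BE, against 11.8, 10.7 and 11.1 CPM in NC. Every BE library of Pola2 was above every NC library, but the log2 fold change of 0.46 ± 0.21 did not pass (adjusted p = 0.10). With library totals alone all 8 genes of this group were called higher.

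Single-strand binding and lagging-strand genes had the lowest median of the groups, a log2 fold change of 0.72 over the 4 tested, of which 2 were called higher. Replication protein A coats the unwound strands in replication and also in repair. Its large subunit Rpa1 had 30.5, 36.0 and 40.4 CPM in BE, against 38.3, 24.0 and 33.0 CPM in NC, and the groups mixed (log2 0.17 ± 0.20, adjusted p = 0.541). Its middle subunit Rpa2 had 16.3, 15.4 and 20.3 CPM in BE, against 13.7, 8.73 and 12.7 CPM in NC. The groups of Rpa2 did not overlap, but the log2 fold change of 0.57 ± 0.24 missed the threshold (adjusted p = 0.0877). Its small subunit Rpa3 had 20.8, 22.5 and 14.5 CPM in BE, against 9.15, 9.40 and 12.9 CPM in NC (log2 0.87 ± 0.25, adjusted p = 0.0183). The Rpa3 call was lost without BE replicate 2 (0.0746), NC replicate 1 (0.0648) or NC replicate 2 (0.0686). Fen1, the nuclease that trims the flaps of Okazaki fragments, had 13.4, 22.3 and 23.2 CPM in BE, against 5.93, 7.05 and 4.74 CPM in NC (log2 1.73 ± 0.29, adjusted p = 0.000903). Lig1, the ligase that seals them, had too few counts assigned to be tested, although all 6 peak lists held peaks on it. Whether its reads were counted for another gene was not tested.

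All 4 enzymes of nucleotide supply were higher, with a median log2 fold change of 1.91. Ribonucleotide reductase makes deoxyribonucleotides, and its small subunit Rrm2 is degraded once cells divide. Rrm2 had 53.1, 108.0 and 85.4 CPM in BE, against 5.93, 3.69 and 6.46 CPM in NC (log2 3.94 ± 0.33, adjusted p = 4.39e-05). The large subunit Rrm1 had 110.1, 165.9 and 138.9 CPM in BE, against 64.0, 55.2 and 46.0 CPM in NC (log2 1.33 ± 0.17, adjusted p = 0.000217). The ratio of Rrm2 to Rrm1 counts was 0.482, 0.651 and 0.615 in BE against 0.0928, 0.0669 and 0.140 in NC, with every BE library above every NC library. Tk1, the cytosolic thymidine kinase of S phase, had 18.4, 19.2 and 18.9 CPM in BE, against 2.62, 3.29 and 4.09 CPM in NC (log2 2.49 ± 0.26, adjusted p = 4.84e-05). Tyms, which makes thymidylate, rose by log2 0.95 ± 0.26 (adjusted p = 0.0141), a call lost without NC replicate 2 (0.0526).

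The chromatin assembly factor places new histones behind the fork, and both subunits studied were called higher. Chaf1a, its large subunit, had 20.1, 28.1 and 24.3 CPM in BE, against 11.3, 7.99 and 10.4 CPM in NC (log2 1.29 ± 0.23, adjusted p = 0.00125). Chaf1b, its middle subunit, had 6.90, 16.9 and 12.5 CPM in BE, against 0, 2.35 and 2.23 CPM in NC, where 0 counts in NC replicate 1 allow up to 0.302 CPM. The groups of Chaf1b did not overlap, but its log2 fold change of 2.94 ± 0.94 was near the threshold (adjusted p = 0.0428). That call was lost with DESeq2 (0.0541), without a filter on low counts (0.0974) and without BE replicate 2 (0.117), BE replicate 3 (0.0988), NC replicate 2 (0.103) or NC replicate 3 (0.105).

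Of the transcription factors, Mybl2, the MYB family member that acts with the MuvB complex on cell cycle genes and is itself an E2F target, had 38.3, 59.1 and 45.5 CPM in BE, against 3.72, 5.04 and 3.45 CPM in NC. Its log2 fold change of 3.54 ± 0.25 had the lowest adjusted p of the members (3.3e-06). E2f1, an activating E2F, had 4.79, 4.19 and 5.34 CPM in BE, against 4.83, 0.873 and 1.87 CPM in NC. NC replicate 1 of E2f1 lay among the BE libraries, and the log2 fold change of 0.94 ± 0.61 did not pass (adjusted p = 0.243). Without NC replicate 1 it passed, at 1.80 with an adjusted p of 0.0434.

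Count ratios within a library do not depend on the scaling between libraries. The pairs were chosen after their values were seen, and with 3 libraries against 3 the smallest two-sided exact permutation p is 0.1, so the ratios are given without a test. Rfc4 per Rfc1 was 0.235, 0.338 and 0.356 in BE against 0.0613, 0.0746 and 0.111 in NC, and Rfc2, Rfc3 and Rfc5 per Rfc1 likewise were higher in every BE library. Orc1 per Orc2 was 0.857, 0.591 and 0.509 in BE against 0.0330, 0.0234 and 0.128 in NC. Mybl2 per Mybl1, a related MYB gene, was 3.29, 7.75 and 7.49 in BE against 0.463, 0.551 and 0.5 in NC. Tk1 per Tk2, the mitochondrial thymidine kinase, was 1.03, 0.963 and 1.15 in BE against 0.184, 0.402 and 0.250 in NC. In each of these ratios every BE library stood above every NC library. For Cdt1 per Gmnn, its inhibitor geminin, for Pole per Pold1 and for Pcna per Mki67 the groups overlapped.

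The genes rose alongside other signs of dividing and of squamous basal cells. All 7 proliferation markers tested were called higher, with a median log2 fold change of 2.02 (Mki67 1.68 ± 0.14, adjusted p = 1.09e-05). Per 1000 CPM of proliferation markers, the members summed to 1386.8, 1385.8 and 1218.4 CPM in BE against 1702.0, 1582.2 and 1870.5 CPM in NC. As a sum they were lower in every BE library. That sum includes abundant members that were not called. Rfc1 had 75.0, 77.8 and 72.6 CPM in BE against 96.9, 67.6 and 78.9 CPM in NC. Rpa1 had 30.5, 36.0 and 40.4 CPM in BE against 38.3, 24.0 and 33.0 CPM in NC. The separation depended on these genes: without Rfc1 and Rpa1 in the member sum, left out after seeing the data, the groups overlapped. Single members differed from the sum: Rrm2 per Mki67 was 0.140, 0.219 and 0.162 in BE against 0.0375, 0.0251 and 0.0496 in NC, and Mcm6 per Mki67 was 0.135, 0.166 and 0.120 in BE against 0.0667, 0.0530 and 0.0551 in NC, with every BE library above every NC library in both. Per 1000 CPM of squamous basal markers, they summed to 136.4, 145.2 and 136.6 CPM in BE against 101.1, 80.1 and 94.9 CPM in NC. These groups separated only with Dst in the sum, the basal marker called lower: without it, left out after seeing the data, the values were 155.2, 162.1 and 157.1 CPM in BE against 219.1, 148.6 and 181.5 CPM in NC, and the groups overlapped. The part of cell number and of tissue makeup in the members' change was not tested.

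Genes that neighbour the members in function were set beside them in 8 further lists, with 101 genes tested. Of these, 51 were called higher, 7 lower and 43 were not called, with a median log2 fold change of 0.66. Over all genes tested, 21.8% were called higher and 21.8% lower, with a median of 0.03. With squamous scaling 29 of the neighbouring genes were called higher and 16 lower. Among 28 other replication factors 16 were called higher and 1 lower (median 1.01). Ticrr, needed to load Cdc45, rose by log2 2.35 ± 0.22 (adjusted p = 2.24e-05), Pole4, a small subunit of polymerase epsilon, fell by 0.73 on the log2 scale (SE 0.26, adjusted p = 0.0414, or 0.189 with library totals alone), and Orc3 was not called at 52.9 to 56.9 CPM in BE and 49.3 to 57.8 CPM in NC. Dbf4, the activator of the Cdc7 kinase that fires origins, was called higher (adjusted p = 0.001), with 192 counts over the BE libraries and 2 over the NC libraries. That is a ratio of 68.5 after scaling (95% exact counting interval 18.7 to 569.5).

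Fork checkpoint genes, which slow the cycle when forks stall, were called higher in 7 of 12 cases and lower in none (median 1.04). Clspn, the adaptor claspin, rose by log2 2.80 ± 0.41 (adjusted p = 0.000364) and its kinase partner Chek1 by log2 2.03 ± 0.29 (adjusted p = 0.000375), while Rad17, a clamp loader subunit of the checkpoint, had a log2 fold change of 0.08 and was not called. Other chromatin factors of the fork were called higher in 8 of 12 cases (median 0.99), led by Mms22l, which acts in repair of broken forks, at log2 3.52 ± 0.28 (adjusted p = 8.05e-06) and Uhrf1, which guides maintenance DNA methylation, at log2 2.48 ± 0.20 (adjusted p = 7.55e-06). The histone chaperone Rbbp7 had a log2 fold change of 0.30 and was not called. Other nucleotide enzymes were called higher in 6 of 12 cases and lower in 1 (median 0.67). Dctpp1, which clears modified nucleotides, rose by log2 1.92 ± 0.45 (adjusted p = 0.00615), while Dguok, a mitochondrial deoxynucleoside kinase, fell by 0.83 on the log2 scale (SE 0.20, adjusted p = 0.00806). Samhd1, which degrades deoxynucleotides, was not called, at 30.9 to 171.3 CPM in BE, with the highest in BE replicate 1, against 38.9 to 61.3 CPM in NC.

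Mismatch repair genes were called higher in 4 of 6 cases (median 0.63), and with squamous scaling in 1. Exo1, the exonuclease, rose by log2 3.98 ± 0.42 (adjusted p = 4.85e-05), while Msh6 was not called, with a log2 fold change of 0.21. Translesion synthesis genes, which copy past damage, had a median of -0.41, with 2 of 7 called higher and 1 lower. Of all genes tested, 21.8% were called higher and 21.8% lower. Rad18, the ligase that marks Pcna at damage, rose by log2 1.83 ± 0.21 (adjusted p = 7.09e-05) and polymerase eta, Polh, by log2 0.87 ± 0.19 (adjusted p = 0.00414), whereas Rev1 fell by 0.70 on the log2 scale (SE 0.13, adjusted p = 0.00186) and Polk was not called at -0.41. Mitochondrial replication genes were called higher in 2 of 9 cases, a share near the 21.8% of all genes. The 2 were Lig3 at log2 0.40 ± 0.11 (adjusted p = 0.0157) and Polg at log2 0.39 ± 0.13 (adjusted p = 0.0335). The median of the mitochondrial list was 0.17, and -0.38 with squamous scaling. In that scaling none was called higher and 1 lower, and Lig3 and Polg both had -0.15. Tfam was not called, with a log2 fold change near 0.

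The E2F, Rb and MuvB list was divided, with 6 of 15 called higher and 4 lower and a median of 0.46, or -0.06 with squamous scaling. Of all genes tested, 21.8% were called higher and 21.8% lower. E2f7, an E2F that represses S-phase genes, had 25, 37.6 and 52.9 CPM in BE, against 2.72, 2.01 and 2.66 CPM in NC (log2 3.97 ± 0.32, adjusted p = 8.11e-06). The pocket protein Rbl1 rose by log2 1.78 ± 0.18 (adjusted p = 3.2e-05). Its relatives Rbl2 and Rb1 fell by 0.93 and 0.57 on the log2 scale (adjusted p = 0.00024 and 0.00146). Tfdp2, a dimer partner of E2F proteins, had 9.48, 7.80 and 8.78 CPM in BE, against 36.6, 43.3 and 37.4 CPM in NC (log2 -2.17 ± 0.18, adjusted p = 1.2e-05). E2f6, a repressor E2F, had 25.7, 32.4 and 28.4 CPM in BE, against 106.7, 109.8 and 80.2 CPM in NC (log2 -1.78 ± 0.16, adjusted p = 1.68e-05). Lin54, the DNA-binding subunit of MuvB, was not called at 0.54 (adjusted p = 0.0536).

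**Figure D3:**
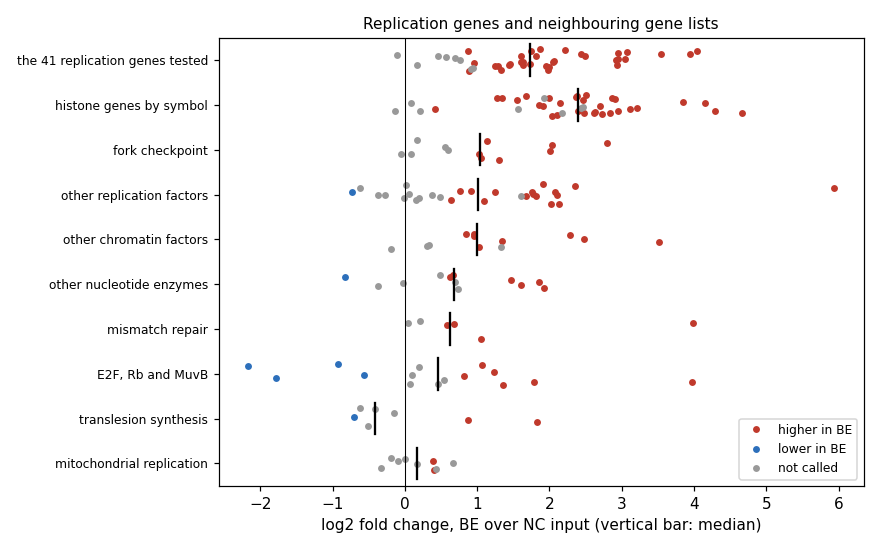
Log2 fold change, BE over NC input, of the 41 tested replication genes and of genes in neighbouring lists, 1 point a gene, red where called higher, blue where called lower and grey where not called, with a bar at each list's median. The medians run from 2.40 for histone genes and 1.73 for the replication genes to 0.17 for mitochondrial replication and -0.41 for translesion synthesis, and with squamous scaling the mitochondrial median becomes -0.38 and the E2F, Rb and MuvB median -0.06.

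Peaks of m6A on the members were more numerous in BE. The BE lists held 69, 79 and 78 member peaks, against 22, 26 and 26 in the NC lists. As a share of each list this was 0.336%, 0.409% and 0.381% in BE, against 0.132%, 0.138% and 0.150% in NC. Members with at least 1 peak numbered 26, 28 and 29 in BE, against 14, 13 and 13 in NC. The groups did not overlap on any of these measures, which with 3 lists against 3 gives no exact p below 0.1. The members' transcripts were also more abundant in the BE inputs, and the part of transcript level in these peak counts was not tested. The depth of the immunoprecipitated libraries is unknown.

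By gene, 9 of 42 members had a peak in all 3 BE lists and in no NC list (21.4%), against 1.83% of the 13638 genes with a distinct name tested for expression. They were Cdc6, Mcm2, Mcm5, Mcm10, Rfc2, Pole, Tk1, Chaf1b and Mybl2, and each was called higher in BE input. Among genes of like direction the shares were 27.3% of the 33 members called higher, against 4.76% of all genes called higher and 7.97% of those at least 2-fold higher. No member had a peak in all 3 NC lists and no BE list, against 1.70% of all genes. A peak in all 6 lists was found for 9 members (21.4%, against 46.9% of all genes), namely Orc6, Gins2, Gins3, Rfc1, Rpa1, Fen1, Lig1, Rrm1 and Chaf1a. Another pattern was seen in 12, and 12 had no peak in any list: Orc1, Gins1, Pcna, Rfc3, Rfc4, Prim1, Prim2, Pold1, Pole2, Rpa3, Rrm2 and Tyms. Mean NC input ran from 1.53 to 14.7 CPM, with a median of 4.02, over the 9 genes with BE peaks only. Over the 9 with peaks in all lists it ran from 0.0718 to 81.1 CPM, with a median of 5.91. The low end and the median of these 9 include Lig1, which had too few counts to be tested. The next lowest was Gins2, at 0.637 CPM. Pcna, Prim1 and Rrm2, among the more abundant members in BE, were among those without a peak.

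**Figure D4:**
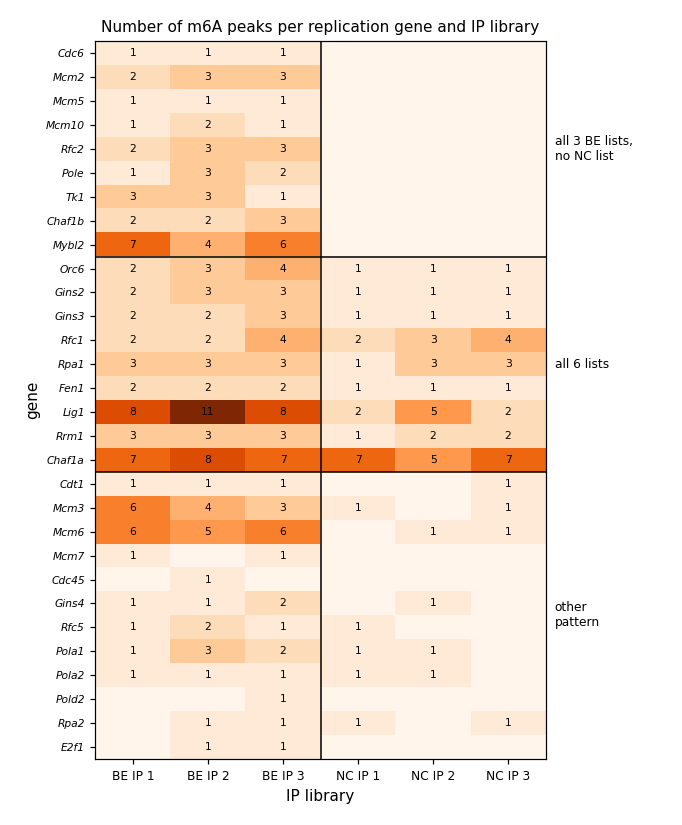
Number of m6A peaks on each of the 30 replication genes with any peak, in the lists of BE IP libraries 1 to 3 (left) and NC IP libraries 1 to 3 (right), with an empty cell for none. The top 9 genes have peaks in all BE lists and in no NC list, and Mybl2 has 7, 4 and 6 in BE and none in NC.

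Merging overlapping peaks gave 100 regions on the members. They include regions on Lig1, which was not tested for expression and so is not among the genes of the 26983 regions. A peak in all 3 BE lists and no NC list covered 28 regions (28.0%, against 4.33% of 26983 regions on tested genes), the reverse 1 region (1.00%, against 2.55%), and a peak in all 6 lists 12 regions (12%, against 39.0%). The 28 became 18 of 84 regions among peaks with a score of at least 100 (21.4%, against 4.52% of all regions) and 15 of 79 among those with a fold enrichment of at least 5 (19%, against 3.05%). In any BE list and no NC list were 67 regions (67.0%, against 23.9%), and in any NC list and no BE list 1 (1.00%, against 11.6%). The 28 regions lay in 18 genes, 14 of them in genes without an NC peak and 14 in 9 genes that had one elsewhere on the transcript. Peak coordinates follow the deposited lists, for which no source used here gives the genome build and which do not match the GRCr8 positions above. The fold enrichment of a peak is the authors' own value and serves only for comparison within a list. Its median over all peaks was 8.59, 9.55 and 8.61 in the BE lists against 13.36, 9.18 and 11.6 in the NC lists. A cutoff of 5 therefore need not mean the same in each list. The BE lists held 20531, 19329 and 20462 peaks in all, against 16644, 18864 and 17311 in the NC lists. Whether weak peaks were called less often in NC was not tested. Whether a region lies in coding or noncoding sequence was not analysed here.

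Among the genes with BE peaks only, Mybl2 had 4 such regions, the widest of them chr3:165636159-165636584 (fold enrichment 10.3, 7.01 and 10.9 in the BE lists). The others on Mybl2 were chr3:165617194-165617407, chr3:165621471-165621564 and chr3:165625149-165625241. Cdc6 had chr10:86627376-86628265 (12.5, 14.7 and 7.58) and Pole had chr12:54138907-54139226 (11, 11.8 and 9.29). Mcm10 had the longest of the 28, chr17:78910346-78911578, of 1233 bases. Chaf1b had chr11:37706722-37707153 and chr11:37710380-37710591, and Rfc2 had chr12:27130769-27131320 and chr12:27143740-27143874. Single regions were found on Tk1 at chr10:106467982-106468109, on Mcm2 at chr4:186079594-186079826 and on Mcm5 at chr19:25681437-25681915. Over the 28 regions the fold enrichment ran from 2.47 to 19.11 and the median length was 213 bases.

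Other regions with BE peaks only lay on genes that also had an NC peak. Mcm6 had 4, chr13:50129127-50129266, chr13:50130191-50130346, chr13:50148516-50148662 and chr13:50152469-50152683, and had 6, 5 and 6 peaks in BE against 0, 1 and 1 in NC. Lig1 had 3, chr1:76730358-76730493, chr1:76731642-76731753 and chr1:76758620-76758772, and 8, 11 and 8 peaks in BE against 2, 5 and 2 in NC, although its input counts were at or near 0. Of 1504 genes with 10 or fewer counts over the input libraries, 53 (3.52%) had a peak in all 6 lists like Lig1. One region each was found on Orc6 at chr19:38423340-38423836, Mcm3 at chr9:25772953-25773059, Gins2 at chr19:64886110-64886488, Gins3 at chr19:9824651-9824884, Fen1 at chr1:233200334-233200570, Rrm1 at chr1:173748186-173748281 and Chaf1a at chr9:9996039-9996128. On each of these 9 genes at least 1 NC list held a peak at another position.

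The strongest shared peaks were on Fen1 and Chaf1a. The Fen1 region chr1:233196202-233198136 had a fold enrichment of 59.9, 50.1 and 50.6 in the BE lists and of 75.8, 38.8 and 67.8 in the NC lists. Chaf1a had 4 regions in all 6 lists, of which chr9:9989927-9990372 had the highest fold enrichment on average, 46.2, 54.3 and 57 in the BE lists and 39.6, 42.3 and 44.2 in the NC lists. Relative to that region within the same list, chr9:9997371-9997573 had a fold enrichment of 0.947, 0.808 and 0.591 in BE against 0.259, 0.118 and 0.246 in NC. For chr9:10007748-10008559 the ratio was 1.06, 0.593 and 0.569 in BE against 0.416, 0.246 and 0.397 in NC, and for chr9:10013802-10013841 it was 0.491, 0.686 and 0.564 in BE against 0.188, 0.203 and 0.159 in NC. All 3 ratios were thus higher in every BE list than in any NC list. They share 1 reference region on 1 gene, and how often regions of other genes separate in this way was not tested. Chaf1a regions in fewer lists differed among themselves. The region chr9:9988293-9988433 had 28.12 and 30.35 in BE lists 1 and 2 against 23.67 and 27.64 in NC lists 1 and 3. For chr9:9998898-9998954 the values were 53.66, 49.9 and 44.77 in BE against 11.96 and 10.97 in NC lists 1 and 3. Chaf1a also carried the 1 region with a peak in all 3 NC lists and no BE list, chr9:9992982-9993208 (10.7, 11.8 and 11.9).

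Separately called lists are not fully independent in their bounds. Exactly the same start and end recurred in another list for 83.0% of all peaks and 81.3% of member peaks.

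**Figure D5:**
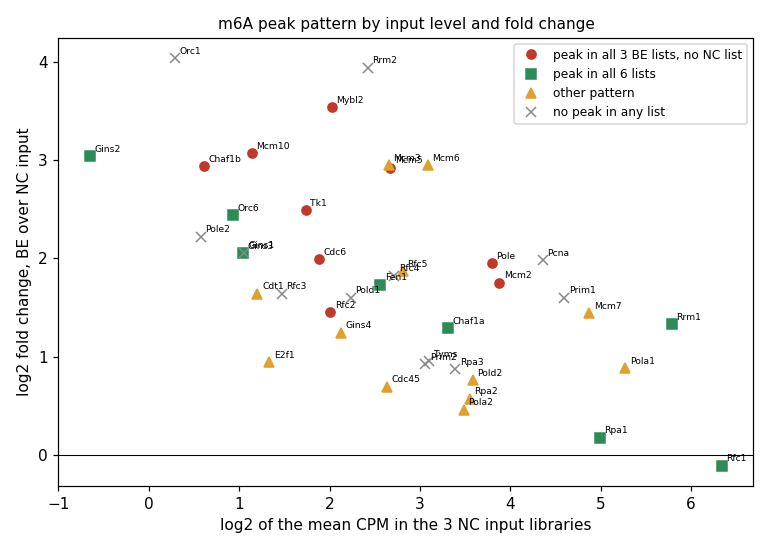
Each of the 41 tested replication genes by log2 of its mean CPM in the NC inputs (horizontal) and its log2 fold change, BE over NC input (vertical), with the symbol showing its m6A peak pattern. Genes with BE peaks only (red) span NC means of 1.53 to 14.7 CPM and all lie above a log2 fold change of 1.4, and the 8 tested genes with peaks in all 6 lists (green) run from -0.11 in Rfc1 to 3.04 in Gins2, with 6 of them called higher.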

How the data were processed

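Rat esophageal tissue gave 3 input and 3 m6A-IP libraries for BE and for NC, as grouped in the labels. An m6A-IP kit was applied to total RNA and a whole-RNA kit made the libraries, per the labels' protocols. The submitters' processing notes name cutadapt 1.9.3 and HISAT2 2.0.4. No source used here gives the genome build, the annotation, the counting tool or its use of strand. The authors deposited 1 table of whole-number counts per gene for the inputs; 6 further per-sample columns of normalized values were not used. Per the file headers, each peak list gave a score, a fold enrichment (a ratio), a length and an FDR, which was not used. Peak names carry the MACS caller's name. Lists were called per library, and coordinates are printed 1-based, taking the lists' starts as 0-based.

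The count model was edgeR 4.0.16 (R 4.3.3), after filterByExpr (10 counts, 0.629 CPM, in at least 3 libraries), with TMM, robust quasi-likelihood fits and two-sided tests of BE against NC without covariates, adjusted over all 13761 genes by Benjamini-Hochberg with a threshold of 0.05. The common biological coefficient of variation was 0.324. The SE is the log2 fold change divided by the square root of F. CPM are TMM-scaled. Of several genes with 1 symbol (210 symbols) the one with the most counts was taken, except for histone genes, where each gene was counted. Where a library had 0 counts, the limit is 3 counts. Intervals and limits cover counting error only. The fit was tested on simulated counts. Within groups, chi-square statistics ran from 19.9 to 77.1 per gene, so no library copies another.

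Peaks were assigned by the gene name in the lists and merged within a gene by at least 1 bp. Alternatives were RLE, upper-quartile, library-total and squamous scaling, no filter, dropping muscle, hepatocyte and mitochondrial genes, DESeq2 1.42.0, voom with quality weights (limma 3.58.1), a replicate block, leaving out each library, and peak thresholds. The members and all gene lists were chosen with earlier results of these data known, so their counts and medians are descriptions. Values in every library are given for up to 3 members of each role with the largest change, members that did not pass and members with a group-specific m6A gene or region; from each neighbouring list up to 2 rises, 2 falls and the most abundant gene not called are named. Genes named outside this rule were chosen after their values were seen. Some genes that the rule would name are not reported here.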

Additional observations from a re-analysis of the deposited data

How the results depend on the processing

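Members called higher in BE numbered 27 to 35 when 1 library was left out, against 33, and the median log2 fold change over all members tested 1.66 to 1.92, against 1.73. With squamous scaling the neighbouring genes called higher and lower became 29 and 16, against 51 and 7, all genes 1089 and 5214, against 2999 and 2996, members called lower 1, against 0, and the median 1.20. With library totals alone 4536 genes were called higher and the median was 2.02. Signs turned only in members that were not called: Rfc1 had 0.18 with library totals and -0.22 to 0.035 with 1 library left out, Pola2 -0.085 with squamous scaling, Rpa1 -0.40 with squamous scaling and -0.00064 to 0.32 with 1 library left out, and Rpa2 -0.00057 with squamous scaling. Over all members and alternatives, 569 of 615 values kept direction and side of the threshold, 28 lost the call, 12 gained it and 6 turned. Replicate numbers were not found to pair the samples: deviations from the group mean correlated at -0.041, 0.006 and -0.073 between same-numbered libraries. By these deviations no BE library correlated best with the NC library of its number. By log2 CPM each BE library correlated best with NC replicate 3 (0.804, 0.817 and 0.838). With the replicate block 31 members were called higher, without Cdt1 (adjusted p = 0.0703) and Rpa3 (0.0535), and 2540 genes in all were called higher and 2683 lower. Member regions with BE peaks only fell to 18 at a score of at least 100 and to 15 at a fold enrichment of at least 5, against 28. With 1 library left out they numbered 29 to 36. Leaving out a list eases the rule of a peak in every BE list and no NC list, so these counts cannot show stability. The NC-only region was lost at the score of 100, leaving 0 against 1. The cause of these shifts was not tested. How deeply the IP libraries were read is not known.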

Other observations

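Histone genes, whose transcripts are made in S phase to package new DNA, were taken by symbol pattern, which also caught H1f0 and H1fx, linker histones not tied to S phase. Of 39 tested, 31 were called higher in BE and none lower, with a median log2 fold change of 2.40, against 21.8% of all genes called higher and a median of 0.03. The linker histone gene Hist1h1b had 148.7, 178.8 and 128.1 CPM in BE, against 26.3, 23.7 and 23.4 CPM in NC (log2 2.63 ± 0.15, adjusted p = 8.33e-07), and Hist1h2ac had 25.3, 34.5 and 27.9 CPM in BE, against 0.604, 2.08 and 1.65 CPM in NC (log2 4.29 ± 0.38, adjusted p = 1.73e-05). H1f0 rose by log2 0.42 ± 0.13 (adjusted p = 0.0208), but had -0.12 with squamous scaling. Hist2h3c2 had 80 counts over the BE libraries and 2 over the NC libraries, a ratio of 28.5 (95% exact counting interval 7.64 to 239.6). The genes named were chosen after their values were seen. Near-identical copies can share reads, so values of single histone genes are uncertain. With squamous scaling 29 were called higher and the median was 1.87.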
